A study of Mus musculus with 15 samples.

Results

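The genes described here encode the proteins of the mitochondrial ribosome in 6DT1 cells, a line derived from mouse mammary cancer (strain background FVB/N1). They were taken by name, as every row of the count table whose symbol is Mrpl or Mrps followed by a number and, in a few cases, a letter a, b or c. That rule found 78 genes of 55341 with counts, 51 of the large subunit, 26 of the small subunit and Mrps36. The 4 groups were CLIC4 knockout cells given 1 µM hydrogen peroxide (H2O2) for 24 h (3 libraries, replicates 5, 7 and 8), untreated CLIC4 knockout cells (4 libraries, replicates 1 to 4), H2O2-treated wild-type cells (4 libraries, replicates 13 to 16) and untreated wild-type cells (4 libraries, replicates 9 to 12). All groups are the same cell line, and CLIC4 is a chloride intracellular channel protein. The labels do not say whether the knockout cells are 1 clone or several, nor whether the libraries of a group came from separate cultures, so p-values measure the spread between these libraries, which may be technical. The question that the design sets is how loss of CLIC4, peroxide and both together change transcript levels.

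The mitochondrial ribosome, or mitoribosome, translates the few messenger RNAs made from mitochondrial DNA, which encode core subunits of the respiratory chain and of ATP synthase. Its ribosomal RNAs come from mitochondrial DNA, whereas all its proteins are encoded in the nucleus, made in the cytosol and imported. Many of these proteins have counterparts in bacterial ribosomes, and others are found only in mitochondria. In promoters of nuclear genes for mitochondrial proteins, the transcription factors NRF1, GABPA (an ETS factor) and YY1 are known binders.

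The libraries held 12.31 to 16.03 M counts, of which the 78 genes took 0.237% to 0.252%. Clic4 averaged 71.3 ± 4.92 counts per M (CPM, normalised for library composition) in untreated knockout and 321 ± 5.06 CPM in untreated wild-type cells (SD, n = 4 each), and 71.8 ± 3.81 CPM in H2O2-treated knockout (n = 3) and 315 ± 1.57 CPM in H2O2-treated wild-type cells (n = 4). Replicate 9 is titled wild type while its genotype field reads knockout, and its Clic4 level of 326.7 CPM lay with the other wild-type libraries. The epithelial keratin Krt8 averaged 649.5 CPM in untreated knockout and 646.1 CPM in untreated wild-type cells and was not called (adjusted p = 0.868). The keratin Krt18 was lower, at 153.5 CPM in untreated knockout and 333.8 CPM in untreated wild-type cells (log2 fold change -1.12, edgeR adjusted p = 6.93e-21). Krt19 was higher, at 156.0 CPM in untreated knockout and 54.2 CPM in untreated wild-type cells (log2 fold change 1.52, edgeR adjusted p = 1.01e-18), whereas Epcam, Cdh1, Krt5 and Krt14 had too few counts to be tested. Summed fibroblast markers lay between 11.1 and 13.8 CPM in all knockout libraries and between 16.9 and 21.9 CPM in all wild-type libraries, with 1 of the 5 at 0 throughout. Nearly all of that sum was Pdgfra, which averaged 10.99 CPM in untreated knockout and 19.51 CPM in untreated wild-type cells. Blood and immune markers summed to 266 to 305 CPM in knockout and 386 to 430 CPM in wild-type libraries, of which Cd68 alone averaged 288.7 CPM in untreated knockout and 400.8 CPM in untreated wild-type cells. Endothelial markers summed to at most 3.51 CPM and adipocyte markers to at most 0.0696 CPM, with 2 of the 3 adipocyte genes at 0. The part of these marker differences in the results below was not tested.

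All 78 genes passed the filter on low counts and entered the fit of 13085 genes. Their counts ran from 29 for Mrpl23 to 1366 for Mrpl24 in a single library, and 74 of the 78 had at least 100 counts in every library. Within a group, the coefficient of variation of a member had a median of 4.81% to 5.77%, and Mrpl23 was the most variable member in every group, at 18.4% to 35.4%. The members are spread over 17 chromosomes, with the most on chromosome 11, which holds 11 of them, and chromosome 17, which holds 8.

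Upstream sequence was described first, since it shows what the members share without reference to their levels. RefSeq promoters (build GRCm38.p6, 250 bases before to 50 after each gene's start) were found for 69 of the 78 members. Each window was searched on both strands for GCGCANGCG (NRF1), CCGGAAG (ETS factors such as GABPA), AANATGGC (YY1) and CACGTG (the E-box bound by MYC and related factors). The NRF1 motif stood in 16 of the 69 members (23.2%) and in 7.03% of all 27025 genes with a promoter. The ETS motif stood in 26 members (37.7%) and in 9.93% of all genes, and the YY1 motif in 21 members (30.4%) and in 6.96% of all genes. The E-box stood in 5 members (7.25%) and in 8.09% of all genes. At least 1 of the NRF1, ETS and YY1 motifs was present in 48 members (69.6%) and in 20.8% of all genes, and no 2 of the motifs overlapped in a member promoter. The 27025 genes outnumber the 13085 tested, so they include genes that were not tested here, whereas all 78 members were. No comparison was made with the tested genes alone or with windows of like base composition. The shares are thus not shown to set the members apart from other expressed genes. These matches are a description of the letters in the window and not of binding.

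Each of the NRF1, ETS and YY1 motifs was found among members that were higher, lower and not called. Of the members with a promoter, 22 were higher in untreated knockout than in untreated wild-type cells, 10 were lower and 37 were not called. Members without a promoter entry included several with large differences. They were Mrpl13, Mrpl15, Mrpl19, Mrpl38 and Mrps28 (higher), Mrpl4 (lower), and Mrpl54, Mrps34 and Mrps35 (not called). The NRF1 motif was found in 6 of the 22, 1 of the 10 and 9 of the 37. The ETS motif was found in 8, 5 and 13 of the same sets, the YY1 motif in 8, 4 and 9, and the E-box in 0, 1 and 4. The promoters of 4 genes are printed because their genes are among those with the largest differences in either direction and were picked after those values were seen. Each of these 4 windows holds a match. Other genes with large differences had windows with none of the 4 motifs, which are not printed, such as Mrpl50 (higher) and Mrps14 and Mrpl55 (lower). Capitals mark the motif matches. The Mrpl9 window (chr3:94443086-94443385, plus strand) holds a palindromic NRF1 match that begins 28 bases before the start site. In the Mrpl49 window (chr19:6057706-6058005, minus strand) a YY1 match begins 17 bases after the start. In the Mrpl24 window (chr3:87919294-87919593, plus strand) the YY1 match is on the other strand, from 153 bases before the start. In the Mrpl33 window (chr5:31613701-31614000, plus strand) an ETS match begins 3 bases before the start, and that RefSeq start lies inside the longer span (chr5:31596935-31664384) that GENCODE M21 gives the gene. Mrpl9 and Mrpl49 were higher in the knockout, and Mrpl24 and Mrpl33 lower.
Mrpl9: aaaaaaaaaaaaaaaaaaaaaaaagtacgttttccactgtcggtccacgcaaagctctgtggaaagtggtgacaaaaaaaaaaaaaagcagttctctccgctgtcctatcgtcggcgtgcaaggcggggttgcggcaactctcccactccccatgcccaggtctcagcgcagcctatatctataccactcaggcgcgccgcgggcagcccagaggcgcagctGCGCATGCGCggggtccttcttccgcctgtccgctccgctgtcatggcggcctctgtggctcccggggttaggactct
Mrpl49: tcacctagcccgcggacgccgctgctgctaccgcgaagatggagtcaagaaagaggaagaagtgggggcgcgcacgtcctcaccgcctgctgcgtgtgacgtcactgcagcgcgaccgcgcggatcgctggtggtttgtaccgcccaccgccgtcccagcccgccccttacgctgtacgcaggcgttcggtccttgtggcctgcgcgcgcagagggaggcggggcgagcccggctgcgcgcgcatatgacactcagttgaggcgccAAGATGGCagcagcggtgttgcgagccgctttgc
Mrpl24: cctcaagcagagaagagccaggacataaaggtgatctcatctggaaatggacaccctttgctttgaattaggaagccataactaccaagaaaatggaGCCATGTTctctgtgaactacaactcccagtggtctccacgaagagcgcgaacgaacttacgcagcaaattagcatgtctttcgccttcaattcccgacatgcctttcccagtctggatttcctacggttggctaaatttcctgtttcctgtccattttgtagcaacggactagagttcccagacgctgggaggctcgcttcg
Mrpl33: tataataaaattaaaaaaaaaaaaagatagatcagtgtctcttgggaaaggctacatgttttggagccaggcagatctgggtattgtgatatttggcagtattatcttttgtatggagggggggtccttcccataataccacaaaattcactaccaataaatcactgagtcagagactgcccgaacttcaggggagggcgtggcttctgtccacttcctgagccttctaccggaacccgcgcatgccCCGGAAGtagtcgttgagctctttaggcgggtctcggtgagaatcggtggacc

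Transcript levels per gene length varied widely among the members. In reads per kilobase per M counts (RPKM), the median member stood at 12.6 in untreated knockout and 12.0 in untreated wild-type cells, with quartiles of 7.50 and 18.6 in the knockout and 7.49 and 18.7 in the wild type. Mrps6, a small-subunit protein, was the highest member, at 41.7 ± 1.92 RPKM in untreated knockout and 46.3 ± 2.73 RPKM in untreated wild-type cells (SD, n = 4 each). Next in the knockout came Mrpl12 at 36.1 ± 0.807, Mrpl53 at 35.4 ± 1.48, and Mrpl24 and Mrps21, both at 34.5 RPKM with SDs of 1.88 and 3.04. These 4 overlapped within 1 SD. In wild-type cells the next places belonged to Mrpl24, at 45.0 ± 1.84 RPKM, and Mrps21, at 40.8 ± 0.497 RPKM. At the low end stood Mrpl47, at 3.83 ± 0.360 RPKM in untreated knockout and 3.28 ± 0.327 RPKM in untreated wild-type cells, and Mrpl23, at 0.833 ± 0.153 RPKM in untreated knockout and 0.850 ± 0.174 RPKM in untreated wild-type cells. Large- and small-subunit members had similar medians, 12.7 and 11.6 RPKM in untreated knockout and 12.1 and 11.2 RPKM in untreated wild-type cells.

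**Figure D1:**
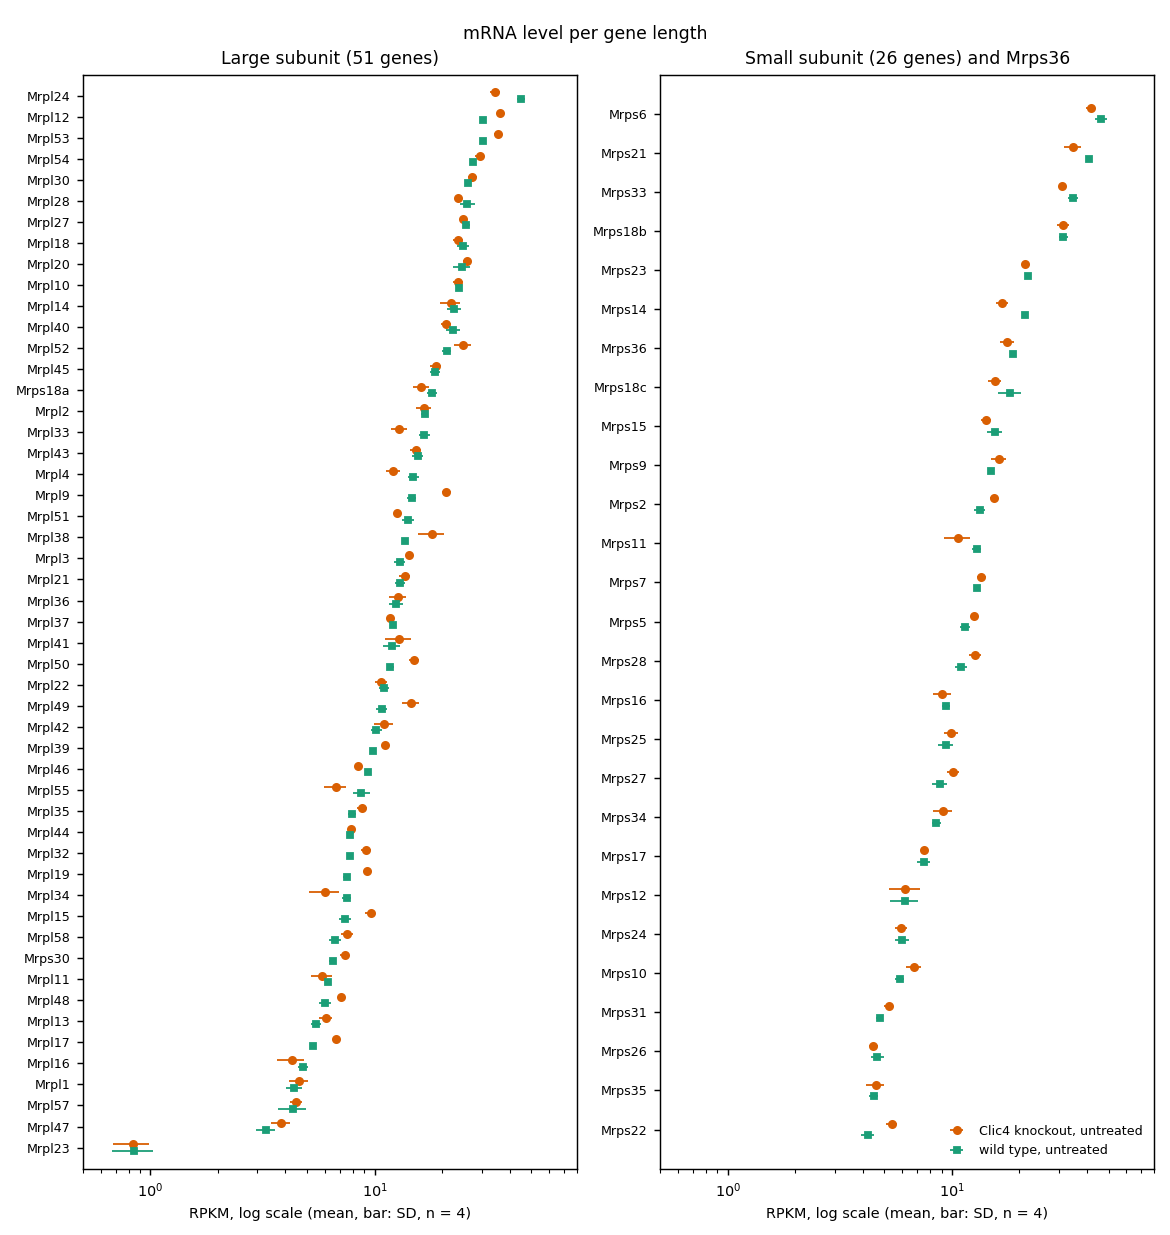
RPKM of each member on a log axis in untreated knockout (circles) and untreated wild-type cells (squares), as mean and SD of 4 libraries, with members ordered by their wild-type level and the large subunit on the left. The quartiles are 7.50 and 18.6 RPKM in the knockout and 7.49 and 18.7 RPKM in the wild type, and Mrpl23 stands below all others at about 0.8 RPKM.

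Mitoribosomal genes differed between untreated knockout and untreated wild-type cells in both directions and by small amounts. Of the 78, 27 were higher in the knockout, 11 were lower and 40 did not pass the test (edgeR's quasi-likelihood test, Benjamini-Hochberg adjusted p under 0.05 over 13085 genes). The largest differences were Mrpl9, 46.3% higher, and Mrpl55, 21.6% lower. The called share was 48.7% of the members, against 66.8% of all genes tested. Members higher made up 34.6%, against 33.9% of all genes, and members lower 14.1%, against 32.9% of all genes. None of the members passed with a difference of at least 1.5-fold, against 24.4% of all genes. For 76 of the 78 the 95% interval of the fold change lay within 1.5-fold either way. The median log2 fold change of the members was 0.05, with quartiles of -0.05 and 0.21, and that of all genes tested was 0.00, with quartiles of -0.30 and 0.30. The members' median was 0.020 with scaling by library totals alone and 0.018 by limma on log2 RPKM. The median of all genes moved as well, to -0.0298 and -0.0254. The members' median thus lay 0.0499 and 0.0432 above that of all genes, against 0.0498 in the main fit.

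The narrow spread is seen most clearly in absolute differences. A log2 difference of at least 0.3 in either direction was found in 12 members (15.4%) and in 49.9% of all genes tested, and one of at least 1 in 0 members and in 13.7% of all genes. Genes with a mean level between those of the lowest and the highest member, 7773 in number, were called in 68.6% of cases, and 22.3% of them passed with at least 1.5-fold. These genes were not matched to the members' levels within that range, and the part of level in the called share was not tested. In 25 of the 27 higher members and 6 of the 11 lower members no knockout library overlapped a wild-type library. The share of all genes without such overlap is not given here, so these counts do not set the members apart from other genes. Called members near the threshold, with an adjusted p between 0.01 and 0.05, numbered 10, and 7 members not called had one between 0.05 and 0.1. The 40 uncalled members are not shown to be equal between genotypes.

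**Figure D2:**
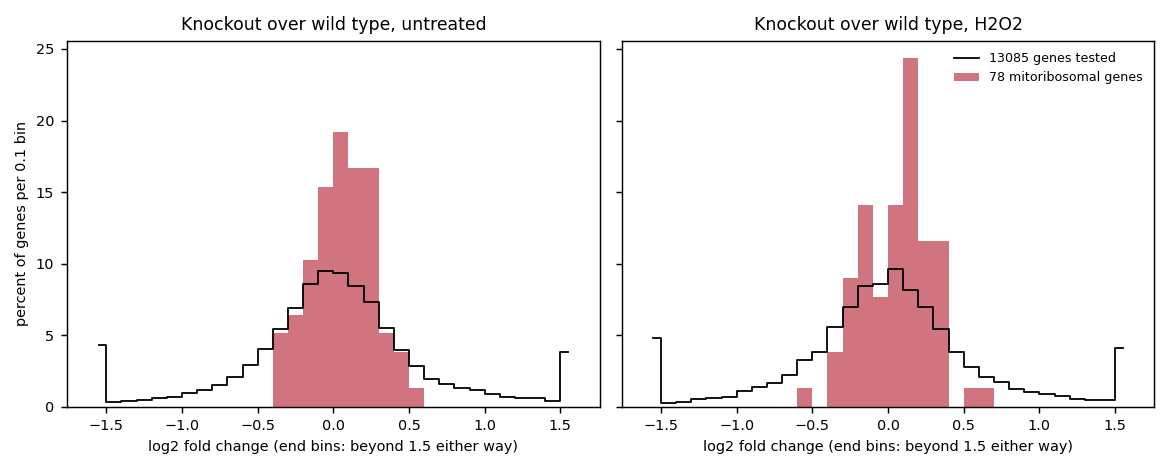
Share of genes, in percent, per bin of 0.1 in log2 fold change of knockout over wild type, for the 78 mitoribosomal genes (filled) and all 13085 genes tested (line), untreated on the left and with H2O2 on the right. The filled bars lie between -0.35 and 0.55 on the left and between -0.56 and 0.66 on the right, while 13.7% and 14.3% of all genes lie at or beyond 1 either way.

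Of the 51 large-subunit members, 20 were higher in untreated knockout, 6 were lower and 25 were not called, with a median log2 fold change of 0.09. Higher members were 39.2% of the subunit, against 33.9% of all genes tested, and lower members 11.8%, against 32.9% of all genes. Mrpl9, counterpart of a bacterial large-subunit protein, had 54.5, 52.0, 53.7 and 48.3 CPM in the 4 untreated knockout libraries, against 37.7, 34.3, 35.8 and 34.6 CPM in the 4 libraries of untreated wild-type cells. Every knockout library stood above every wild-type library, and the log2 fold change was 0.55 (SE 0.0526, adjusted p = 3.62e-10). Mrpl49, a protein found only in mitochondrial ribosomes, had 37.4, 33.4, 30.6 and 31.8 CPM in knockout libraries, against 24.6, 22.7, 25.8 and 23.1 CPM in wild-type libraries. Again the groups did not overlap, with a log2 fold change of 0.47 (SE 0.0643, adjusted p = 3.11e-07). Mrpl38, a mitochondria-specific protein of the central protuberance, had 43.3, 45.9, 55.4 and 41.2 CPM in knockout libraries, against 34.2, 34.4, 33.3 and 35.5 CPM in wild-type libraries. The knockout libraries were the more spread, yet all stood above the wild type, with a log2 fold change of 0.44 (SE 0.0679, adjusted p = 2.65e-06).

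A further group of large-subunit genes was 20.6% to 32.2% higher in untreated knockout without any overlap of libraries. Mrpl15 averaged 49.3 ± 2.61 CPM in knockout and 37.3 ± 2.31 CPM in wild-type cells (SD, n = 4 each). Mrpl50 averaged 39.2 ± 1.99 CPM in knockout and 30.1 ± 1.03 CPM in wild-type cells, and Mrpl17 53.4 ± 1.95 CPM in knockout and 41.0 ± 1.27 CPM in wild-type cells. Mrpl19 averaged 55.1 ± 1.96 CPM in knockout and 43.6 ± 1.49 CPM in wild-type cells, and Mrpl32, whose product is cut to its mature form by the m-AAA protease in yeast and mouse, 33.1 ± 1.72 CPM in knockout and 27.4 ± 0.856 CPM in wild-type cells. Mrpl12, a stalk protein that also binds the mitochondrial RNA polymerase in human cells, had 69.5, 69.6, 72.4 and 68.8 CPM in knockout libraries, against 58.2, 55.8, 58.5 and 59.9 CPM in wild-type libraries. Its libraries were among the tightest of the set, and the log2 fold change was 0.27 (SE 0.0428, adjusted p = 2.90e-06).

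The other 6 called large-subunit genes were lower in untreated knockout. Mrpl24, whose bacterial counterpart sits beside the exit of the peptide tunnel, had 66.6, 66.3, 71.9 and 73.1 CPM in untreated knockout libraries, against 85.8, 90.0, 92.9 and 85.3 CPM in untreated wild-type libraries. No library overlapped, and the log2 fold change was -0.35 (SE 0.0443, adjusted p = 7.99e-08). Mrpl33 had 38.5, 35.5, 31.6 and 36.5 CPM in knockout libraries, against 46.6, 46.1, 46.4 and 41.5 CPM in wild-type libraries, with a log2 fold change of -0.35 (SE 0.0558, adjusted p = 3.82e-06). The groups were apart even though wild-type replicate 12 was lower than its 3 companions. Mrpl55 has a bacterial counterpart as well. It had 7.89, 8.01, 6.96 and 9.08 CPM in knockout libraries, against 9.72, 10.6, 9.18 and 11.2 CPM in wild-type libraries. The difference came to -0.35 on the log2 scale (SE 0.1, adjusted p = 0.00298). Mrpl4, whose bacterial counterpart lines the peptide tunnel, averaged 28.3 ± 2.10 CPM in knockout and 34.1 ± 1.99 CPM in wild-type cells, with a log2 fold change of -0.27. Mrpl51 (log2 fold change -0.14, adjusted p = 0.0241) and Mrps18a (-0.13, adjusted p = 0.0498) were the other two lower ones, and their libraries overlapped.

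Of the 26 small-subunit members, 7 were higher in untreated knockout, 5 were lower and 14 were not called, with a median log2 fold change of 0.03. Higher members were 26.9% of the subunit, against 33.9% of all genes tested, and lower members 19.2%, against 32.9% of all genes. Mrps22, a mitochondria-specific protein, led the higher ones with 16.8, 19.4, 17.8 and 17.96 CPM in knockout libraries, against 13.8, 14.9, 13.4 and 12.9 CPM in wild-type libraries. The groups were apart, with a log2 fold change of 0.39 (SE 0.0697, adjusted p = 1.67e-05). Mrps14 was the lowest in fold change, with 55.0, 57.2, 55.1 and 62.4 CPM in knockout libraries, against 72.5, 68.5, 72.0 and 70.5 CPM in wild-type libraries. That is a log2 fold change of -0.30 (SE 0.0457, adjusted p = 1.38e-06) with no overlap. Mrps21, the counterpart of a small bacterial protein, averaged 26.3 ± 2.28 CPM in knockout and 30.4 ± 0.365 CPM in wild-type cells, a log2 fold change of -0.21 (adjusted p = 0.00317). All 5 lower small-subunit genes have bacterial counterparts, as do 5 of the 7 higher ones and 16 of all 26 small-subunit members. Among the 20 large-subunit genes known only from mitochondria, 10 were higher (50%) and 1 was lower (5%). Among the 30 with bacterial counterparts 10 were higher (33.3%) and 4 lower (13.3%). The shares of all genes tested were 33.9% higher and 32.9% lower. Whether the subunits or the 2 kinds of protein differ was not tested.

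**Figure D3:**
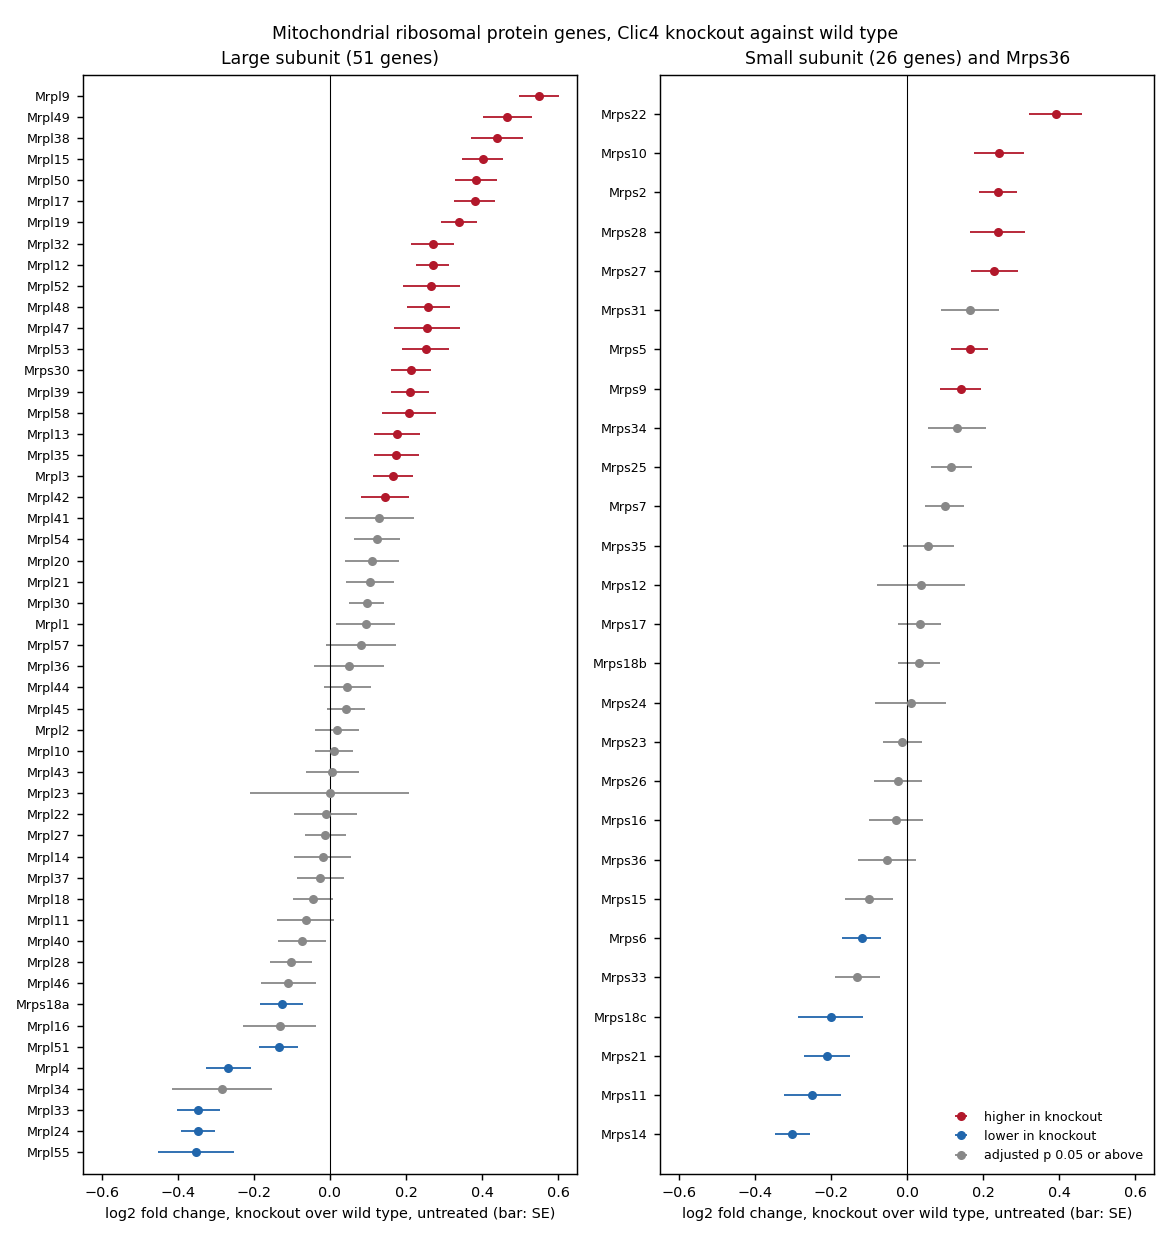
Log2 fold change of each member, untreated knockout over untreated wild type, with its SE as a bar and large-subunit genes on the left. Red points passed at higher levels in knockout (27 genes), blue points at lower levels (11 genes) and grey points did not pass (40 genes), and all lie between -0.35 and 0.55.

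Summed over genes, the members took slightly more of the transcript pool in knockout libraries. The sum was 2515 to 2561 CPM in the 4 untreated knockout libraries, against 2397 to 2433 CPM in the 4 untreated wild-type libraries, without overlap. Large-subunit genes summed to 1703 ± 14.9 CPM in untreated knockout and 1594 ± 8.39 CPM in untreated wild-type cells (SD, n = 4 each). Small-subunit genes summed to 820 ± 6.02 CPM in untreated knockout and 811 ± 11.0 CPM in untreated wild-type cells, with ranges that overlapped. The ratio of the large to the small sum was 2.06 to 2.10 in untreated knockout and 1.94 to 1.99 in untreated wild-type libraries. With H2O2 it was 2.07 to 2.13 in the knockout and 1.98 to 2.01 in the wild type, again without overlap. These sums weigh genes by their counts, which depend on gene length. In such bulk RNA, a change in the share of cells and one in RNA per cell cannot be told apart.

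Members known for a second role, or named for a subunit they are not part of, showed no common direction. Mrps36, an adaptor of the 2-oxoglutarate dehydrogenase complex in spite of its name, averaged 18.1 ± 1.30 CPM in untreated knockout and 18.7 ± 0.595 CPM in untreated wild-type cells (SD, n = 4 each) and was not called (adjusted p = 0.549). Mrpl58, a peptidyl-tRNA hydrolase built into the large subunit that can release stalled chains, averaged 24.5 ± 1.51 CPM in knockout and 21.2 ± 1.24 CPM in wild-type cells, a log2 fold change of 0.21 (adjusted p = 0.0110). Mrps30, which sits in the large subunit, averaged 34.6 ± 1.67 CPM in knockout and 29.9 ± 1.05 CPM in wild-type cells, a log2 fold change of 0.21 (adjusted p = 9.05e-04). Mrpl44, with a ribonuclease III-like fold, had 19.3 ± 0.678 CPM in knockout and 18.7 ± 0.101 CPM in wild-type cells and was not called (adjusted p = 0.536). Mrps12, part of the decoding centre, was not called either, at 8.19 ± 1.28 CPM in knockout and 7.97 ± 1.15 CPM in wild-type cells (adjusted p = 0.797).

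The 3 Mrps18 paralogs descend from 1 bacterial protein and occupy different places in the ribosome. Mrps18a, which lies in the large subunit, averaged 36.2 ± 2.89 CPM in untreated knockout and 39.5 ± 1.99 CPM in untreated wild-type cells (SD, n = 4 each). Mrps18b averaged 45.0 ± 2.95 CPM in knockout and 44.0 ± 2.21 CPM in wild-type cells and was not called (adjusted p = 0.649). Mrps18c averaged 19.0 ± 1.35 CPM in knockout and 21.8 ± 2.55 CPM in wild-type cells, a log2 fold change of -0.20 (adjusted p = 0.0402). The calls of Mrps18a and Mrps18c lay just inside the threshold, their libraries overlapped, and several alternative settings ended them.

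Under H2O2 the genotypes differed in much the same way. Of the 78 members, 28 were higher in H2O2-treated knockout than in H2O2-treated wild-type cells, 12 were lower and 38 were not called, so 51.3% were called, against 65.4% of all genes tested (edgeR's quasi-likelihood test, adjusted as above). Members higher made up 35.9%, against 33.0% of all genes, and members lower 15.4%, against 32.4% of all genes. At least 1.5-fold was reached by 1 member, Mrpl9, against 25.4% of all genes. The median log2 fold change was 0.10 for the members and 0.00 for all genes tested. It was 0.074 for the members with library totals alone and 0.070 by limma on log2 RPKM. In these settings the median of all genes was -0.0259 and -0.0207. The members' median thus lay 0.0994 and 0.0905 above that of all genes, against 0.0996 in the main fit. Scaling by library totals alone gave 24 higher and 19 lower members in place of 28 and 12, and limma on log2 RPKM gave 26 and 20.

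The genes at the extremes were largely those seen without peroxide. Mrpl9 had 54.0, 56.2 and 55.1 CPM in the 3 H2O2-treated knockout libraries, against 34.2, 33.2, 34.0 and 37.9 CPM in the 4 H2O2-treated wild-type libraries. The groups were far apart, with a log2 fold change of 0.66 (SE 0.0566, adjusted p = 4.08e-11). Mrpl49 had 37.1, 33.2 and 35.1 CPM in knockout libraries, against 23.8, 24.3, 25.6 and 24.2 CPM in wild-type libraries, a log2 fold change of 0.52 (SE 0.0690, adjusted p = 1.71e-07). Mrpl38, Mrpl50, Mrpl53, Mrpl17, Mrpl12, Mrps22, Mrpl19 and Mrps28 followed, with log2 fold changes of 0.33 to 0.40 and no overlap of libraries. Mrpl12 had 75.2, 72.0 and 69.5 CPM in knockout libraries, against 54.3, 56.2, 58.1 and 59.1 CPM in wild-type libraries.

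At the other end stood Mrpl34, a short large-subunit protein with a bacterial counterpart. It had 5.07, 4.26 and 3.68 CPM in H2O2-treated knockout libraries, against 6.17, 5.603, 6.01 and 8.05 CPM in H2O2-treated wild-type libraries. The 2 groups were apart, with a log2 fold change of -0.56 (SE 0.15, adjusted p = 0.00174). In untreated libraries there was no overlap either, at 5.39 ± 0.794 CPM in knockout and 6.59 ± 0.298 CPM in wild-type cells, but the test was not passed (adjusted p = 0.0575). Mrpl33 had 34.1, 33.3 and 33.7 CPM in knockout libraries, against 43.3, 44.1, 44.3 and 42.4 CPM in wild-type libraries, a log2 fold change of -0.37 (SE 0.0616, adjusted p = 6.93e-06). Mrps21 had 26.7, 24.4 and 25.9 CPM in knockout libraries, against 32.5, 31.4, 34.1 and 33.7 CPM in wild-type libraries, a log2 fold change of -0.36 (SE 0.0660, adjusted p = 2.93e-05). Mrpl16 was lower at a log2 fold change of -0.37 (adjusted p = 0.00307), and Mrps14, Mrpl24, Mrps6, Mrpl4, Mrpl18 and Mrpl51 at -0.15 to -0.25, none with overlapping libraries. Mrpl55, the lowest member without peroxide, was not called here (log2 fold change -0.23, adjusted p = 0.0668).

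**Figure D4:**
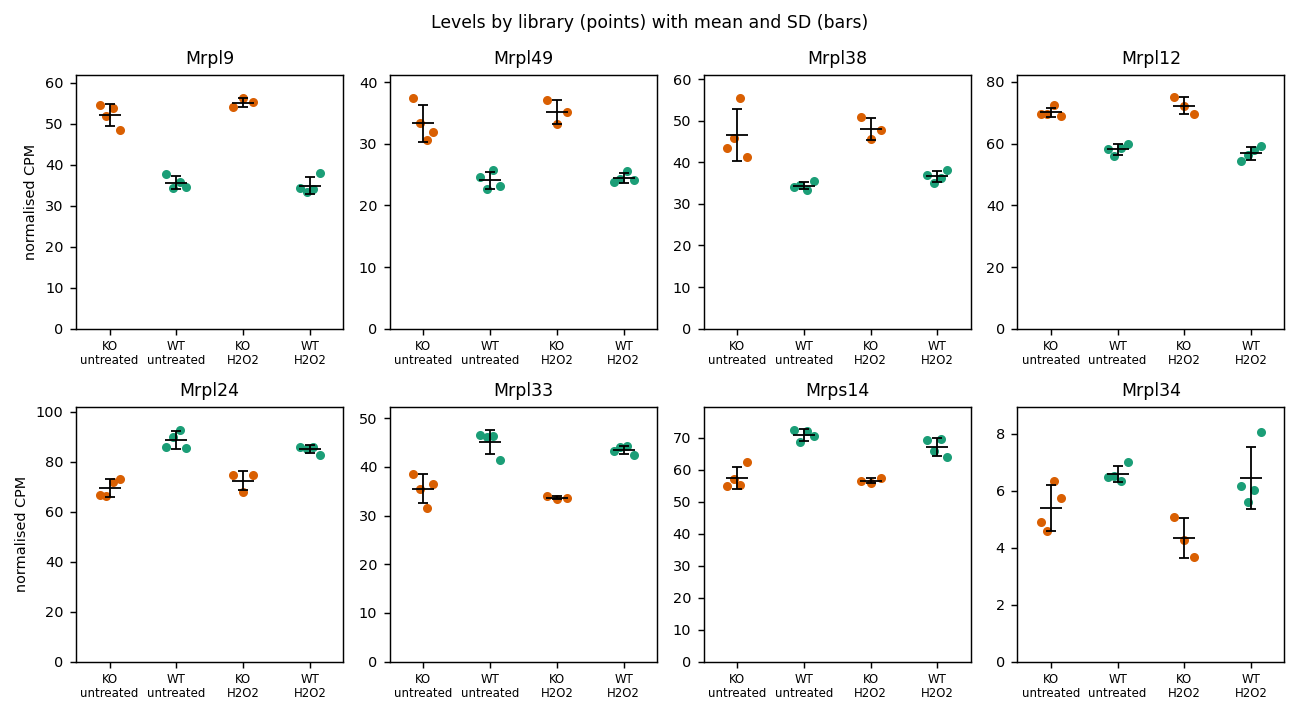
Normalised CPM of 8 members in each library (points), with group mean and SD (bars), knockout in orange and wild type in green, untreated in the left pair and H2O2-treated in the right pair of each panel. Knockout libraries lie above wild-type libraries in both pairs for Mrpl9, Mrpl49, Mrpl38 and Mrpl12 and below them in both pairs for Mrpl24, Mrpl33, Mrps14 and Mrpl34.

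The 2 genotype comparisons share no library, although they share the cells, the model and its estimate of spread. Higher in both were 19 members, 70.4% of those higher without treatment and 67.9% of those higher with H2O2. Lower in both were 7 members, 63.6% and 58.3% of the lower lists. No member was called in opposite directions, 26 were called in neither, and 67 of the 78 had the same sign. Such counts are not given here for all genes tested, of which 66.8% were called untreated and 65.4% with H2O2. The agreement is thus not shown to be particular to the members. Across the 78 members the 2 sets of log2 fold changes had a Pearson correlation of 0.87 and a Spearman correlation of 0.85, as a description across genes, which are not independent replicates.

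No member passed the test for an effect of peroxide in either genotype. In knockout cells 0 of the 78 members were called between H2O2 and untreated, against 0.0535% of all genes (7 genes), by edgeR's quasi-likelihood test and also by DESeq2. At an unadjusted p under 0.05 there were 6 members (7.69%), against 7.96% of all genes, and the smallest adjusted p was 0.469. In wild-type cells 0 members were called, against 0.0153% of all genes (2 genes), and also 0 by DESeq2, with 4 members (5.13%) at an unadjusted p under 0.05, against 6.47% of all genes, and a smallest adjusted p of 0.698. The median log2 fold change of H2O2 over untreated was 0.00 in knockout and -0.02 in wild-type cells. The 95% interval of this fold change lay within 1.5-fold for 76 of the 78 members in knockout and for all 78 in wild-type cells.

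Mrpl57, a mitochondria-specific protein of the large subunit, had 12.8, 11.7 and 11.2 CPM in H2O2-treated knockout libraries, against 13.8, 14.2, 15.6 and 14.0 CPM in untreated knockout libraries. The libraries did not overlap, but the log2 fold change of -0.28 did not pass (adjusted p = 0.469). In wild-type cells the same gene averaged 11.9 ± 1.00 CPM with H2O2 and 13.6 ± 1.99 CPM without (SD, n = 4 each), a log2 fold change of -0.20 (adjusted p = 0.761). Mrpl57 had the smallest p-value of the members in knockout cells, and the next were Mrpl36, with a log2 fold change of -0.27 (adjusted p = 0.499), and Mrps6, with one of -0.14 (adjusted p = 0.537). In wild-type cells the smallest p-values belonged to Mrps18c, with a log2 fold change of -0.21 (adjusted p = 0.698), and Mrps28, with one of -0.17 (adjusted p = 0.719).

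**Figure D5:**
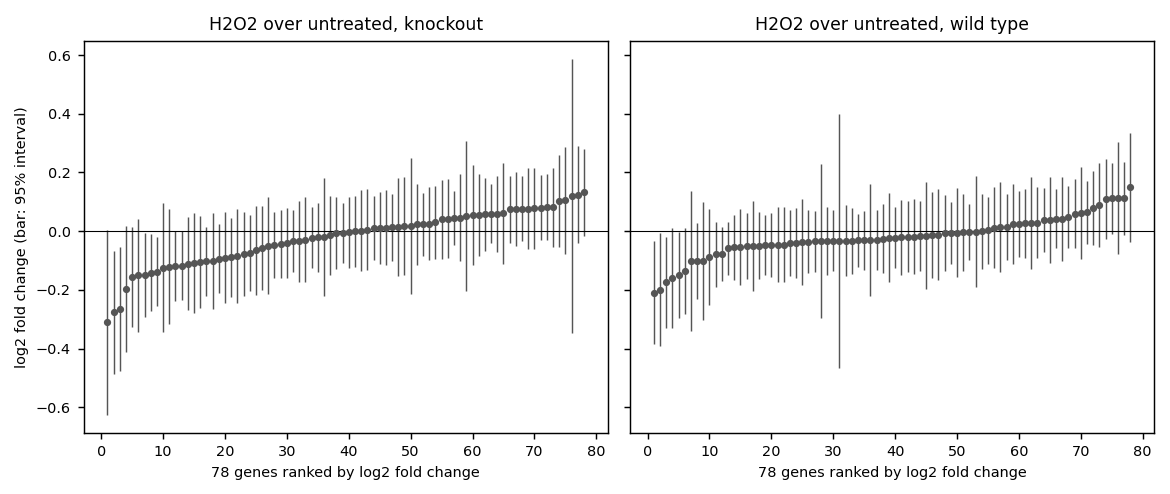
Log2 fold change of H2O2 over untreated for the 78 members, ranked, with its 95% interval as a bar, in knockout (left) and wild-type cells (right). The points lie between -0.31 and 0.13 in knockout and between -0.21 and 0.15 in wild-type cells, and none passed the test after adjustment.

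The effect of H2O2 was not found to differ between the genotypes for any member. The interaction gave 0 called members by edgeR's quasi-likelihood test and by DESeq2, against 0.00% of all genes, and 2 members (2.56%) at an unadjusted p under 0.05, against 6.18% of all genes. Those 2 were Mrps16 and Mrpl22. Mrps16 had 28.7, 30.9 and 28.1 CPM in H2O2-treated and 29.9, 28.3, 27.1 and 23.8 CPM in untreated knockout libraries. It had 26.2, 21.5, 26.7 and 26.1 CPM in H2O2-treated and 27.3, 29.0, 26.6 and 28.3 CPM in untreated wild-type libraries. The difference between the 2 effects was 0.25 on the log2 scale (adjusted p = 0.797), and for Mrpl22 it was 0.26 (adjusted p = 0.804). Mrpl35 followed at -0.17 (adjusted p = 0.814). Mrpl34 and Mrpl16, called between genotypes only under H2O2, had differences of -0.28 (adjusted p = 0.899) and -0.24 (adjusted p = 0.873), so the genotype effect on them is not shown to depend on peroxide.

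Some values depend on how reads were shared between rows. On mm10, 42 of the 78 members overlap another annotated gene, 36 of them one on the other strand, and the sources used here do not state whether counting used the strand. Such overlaps were found for 17 of the 27 higher, 7 of the 11 lower and 18 of the 40 uncalled members in the untreated comparison. Mrpl53 (chr6:83109040-83109939, plus strand) lies within Gm42688, with which it shares 82.0% of its 50-base words. Mrpl53 averaged 37.8 ± 1.63 CPM in untreated knockout and 31.7 ± 0.983 CPM in untreated wild-type cells, while Gm42688 averaged 7.39 ± 0.912 CPM in knockout and 9.31 ± 1.31 CPM in wild-type cells (SD, n = 4 each). The 2 rows thus moved in opposite directions, with log2 fold changes of 0.25 (adjusted p = 7.42e-04) for Mrpl53 and -0.33 (adjusted p = 0.0149) for Gm42688. Mrps34 shares 34.2% of its words with its neighbour Nme3, and Mrpl22 22.4% with the processed pseudogene Gm6997, which averaged 0.867 counts per library. Other partners had more counts than the member. Mrps6, at a mean of 768 counts, shares 7.42% with Slc5a3, at 1942. Mrps24, at 126 counts, shares 11.8% with Urgcp, at 1029. The part of this sharing in the levels of Mrps6 and Mrps24 was not tested. Mrpl23 (chr7:142532686-142540747, plus strand), named after its values were seen, had 29 to 61 counts per library, while its processed pseudogene Mrpl23-ps1 on chromosome 2 had a mean of 362. Mrpl23 was not called in either genotype comparison. It shares 9.82% of its words with Mrpl23-ps1. With the 2 rows summed, the log2 fold change was 0.12 (adjusted p = 0.0878) untreated and 0.15 (adjusted p = 0.0453) with H2O2. Most of the summed counts are those of Mrpl23-ps1, which by itself had 0.13 (adjusted p = 0.0772) and 0.15 (adjusted p = 0.0673). The sum therefore does not show a difference in Mrpl23.

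A single pair of members lies head to head. Mrpl46 (chr7:78775236-78783531, minus strand) and Mrps11 (chr7:78783119-78792989, plus strand), genes for a large- and a small-subunit protein, overlap at their 5′ ends, and they were named after their values were seen. Mrps11 had 16.2, 16.6, 20.95 and 16.4 CPM in untreated knockout libraries, against 21.5, 20.97, 19.5 and 21.5 CPM in untreated wild-type libraries, a log2 fold change of -0.25 (adjusted p = 0.00462). One knockout library reached the wild-type range. Mrpl46 averaged 17.0 ± 0.471 CPM in knockout and 18.3 ± 0.403 CPM in wild-type cells (SD, n = 4 each) and was not called (adjusted p = 0.188). With H2O2, Mrpl46 was lower in the knockout (log2 fold change -0.20, adjusted p = 0.0306) and Mrps11 was not called (-0.17, adjusted p = 0.0647). In all, 33 members have a coding gene that starts within 1 kb on the other strand.

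The genes named most often above lie, on mm10 in GENCODE M21, at chr3:94443318-94451130 (Mrpl9, plus strand), chr19:6053622-6057785 (Mrpl49, minus), chr11:116131817-116138868 (Mrpl38, minus), chr11:120484613-120489065 (Mrpl12, plus), chr3:87919506-87923672 (Mrpl24, plus), chr1:160195215-160202170 (Mrps14, plus), chr9:98588730-98601660 (Mrps22, minus) and chr8:71464959-71465747 (Mrpl34, plus). Mrpl9, Mrpl24 and Mrps21 are all on chromosome 3, where 3 of the 5 members were higher and 2 lower in untreated knockout. On chromosome 11, 3 of 11 were higher, 1 was lower and 7 were not called. Of all genes tested, 33.9% were higher and 32.9% lower, and whether position matters was not tested.

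Other parts of the mitochondrial translation system were read from lists beside the members. Of the 5 mitoribosomal proteins with other names, 4 were higher in untreated knockout and 0 lower, so 80% were called against 66.8% of all genes tested, with a median log2 fold change of 0.29. Chchd1 averaged 31.6 CPM in untreated knockout and 23.8 CPM in untreated wild-type cells, a log2 fold change of 0.41 (adjusted p = 4.76e-07), and Aurkaip1 averaged 42.9 CPM in knockout and 33.6 CPM in wild-type cells, one of 0.35 (adjusted p = 4.75e-06). Ptcd3 (0.24) and Gadd45gip1 (0.29) passed as well. Dap3, a GTP-binding small-subunit protein, averaged 69.3 CPM in knockout and 68.5 CPM in wild-type cells and was not called (adjusted p = 0.726). With H2O2 the same list again had 4 higher and 0 lower members.

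Factors that build or serve the mitoribosome held called genes of both directions, at a share below that of all genes tested. Called were 56.0% of the assembly factors, 47.1% of the translation factors and 60.0% of the genes that charge transfer RNAs in untreated knockout, against 66.8% of all genes. With H2O2 the shares were 56.0%, 58.8% and 55.0%, in the same order, against 65.4% of all genes. Of 25 assembly factors, 6 were higher and 8 lower in untreated knockout, with a median log2 fold change of 0.03, and 10 were higher and 4 lower with H2O2. Ptcd1 was higher, at 26.2 CPM in untreated knockout and 17.5 CPM in untreated wild-type cells (log2 fold change 0.58, adjusted p = 1.07e-08). Gtpbp10, a GTPase of large-subunit assembly, was lower, at 6.52 CPM in knockout and 11.9 CPM in wild-type cells (log2 fold change -0.87, adjusted p = 1.66e-08). Of 17 translation factors 5 were higher and 3 lower untreated, and 5 and 5 with H2O2, among them Tufm, the mitochondrial elongation factor Tu, at 82.1 CPM in knockout and 63.4 CPM in wild-type cells (log2 fold change 0.37, adjusted p = 5.01e-08). Of 20 genes that charge mitochondrial transfer RNAs 9 were higher and 3 lower untreated, and 8 and 3 with H2O2. Mars2, the methionyl-tRNA synthetase, had the largest difference of these (log2 fold change 1.09, adjusted p = 1.00e-12).

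The mitoribosome translates the messages of mitochondrial DNA and contains its ribosomal RNAs. Of the 13 transcripts of mitochondrial DNA that encode proteins, 0 were higher, 8 were lower and 5 were not called in untreated knockout, with a median log2 fold change of -0.47. With H2O2 0 were higher, 10 were lower and 3 were not called, with a median of -0.95. The shares lower were 61.5% untreated and 76.9% with H2O2, against 32.9% and 32.4% of all genes tested. As none was higher, these are also the called shares, against 66.8% and 65.4% of all genes. mt-Cytb averaged 2607 CPM in untreated knockout and 4463 CPM in untreated wild-type cells (log2 fold change -0.78, adjusted p = 1.11e-04). Of the 2 mitochondrial ribosomal RNAs, mt-Rnr2 was lower at 108.8 CPM in knockout and 134.9 CPM in wild-type cells (log2 fold change -0.31, adjusted p = 0.00503), and mt-Rnr1 was not called (adjusted p = 0.902). The libraries were made with an mRNA kit, per the labels' protocols, so ribosomal RNA was not the target of the library step. Nuclear genes for subunits of the respiratory chain and ATP synthase included 30 of 74 higher and 13 lower in untreated knockout, with a median log2 fold change of 0.03, and 22 higher and 13 lower with H2O2. The called shares were 58.1% untreated and 47.3% with H2O2, against 66.8% and 65.4% of all genes tested.

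Cytosolic ribosomal protein genes were higher in nearly every case. Of 77 tested, 74 were higher and 0 lower in untreated knockout, with a median log2 fold change of 0.34, and 71 were higher and 0 lower with H2O2, with a median of 0.32. The shares higher were 96.1% untreated and 92.2% with H2O2, against 33.9% and 33.0% of all genes tested. Whether this list differs from the mitoribosomal genes was not tested. Among 9 transcription factors and coactivators of mitochondrial genes, 4 were higher and 1 lower untreated, and 6 and 1 with H2O2. The called shares were 55.6% untreated and 77.8% with H2O2, against 66.8% and 65.4% of all genes tested. Nrf1 averaged 35.9 CPM in untreated knockout and 29.9 CPM in untreated wild-type cells (log2 fold change 0.26, adjusted p = 1.29e-04), and Gabpb1, the partner of GABPA, 21.4 CPM in knockout and 17.1 CPM in wild-type cells (0.32, adjusted p = 0.00212). Gabpa itself (adjusted p = 0.273) and Yy1 (adjusted p = 0.677) were not called without treatment. With H2O2 both were among the 6 higher genes, Gabpa with a log2 fold change of 0.11 (adjusted p = 0.0487) and Yy1 with one of 0.10 (adjusted p = 0.0383). Myc averaged 610.6 CPM in knockout and 384.5 CPM in wild-type cells (log2 fold change 0.67, adjusted p = 9.41e-07). Ppargc1a had 0 counts in the knockout libraries and averaged 3.46 CPM in untreated wild-type cells. Of 12 genes of mitochondrial transcription and DNA upkeep, 4 were higher and 0 lower untreated, and 6 and 0 with H2O2. Called shares were thus 33.3% untreated and 50% with H2O2, against 66.8% and 65.4% of all genes tested. As none was lower, these are also the shares higher, against 33.9% and 33.0% of all genes. Tfam was among the higher ones, at 53.9 CPM in untreated knockout and 43.1 CPM in untreated wild-type cells (log2 fold change 0.32, adjusted p = 4.95e-06). The part of these genes in the levels of the members was not tested.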

How the data were processed

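RNA was isolated with an RNeasy kit and sequenced as read pairs on a NextSeq from stranded mRNA libraries, per the labels' protocols. The authors deposited expected counts per gene symbol, already rounded to whole numbers, and RPKM values; the submitters' processing notes name cutadapt, STAR, RSEM and mm10, without versions or settings. Annotation version and strand setting are not given in the sources used here. For the members, deposited RPKM and counts differed only by a factor for the gene and one for the library.

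Counts were tested with edgeR 4.0.16 (R 4.3.3): filterByExpr left 13085 genes with 99.9% of the counts, TMM scaling, and 1 robust quasi-likelihood fit of 4 group means to 15 libraries (11 residual degrees of freedom). Every adjusted p is from this fit, with Benjamini-Hochberg adjustment over the 13085 genes, unless another tool is named; genes under 0.05 were called. CPM is normalised by TMM. SE is approximate and intervals are 95%. DESeq2 1.42.0 and limma 3.58.1 (on log2 of RPKM plus 0.5) were alternatives. Counting error alone limits members with few counts.

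The members and lists were chosen with earlier results of these data known. Members named were, in each genotype comparison, up to 10 called ones in each direction whose groups did not overlap and whose higher mean was 5 CPM or more, in the others the 3 with the smallest p, and 9 by role. Gene positions are from GENCODE M21 (mm10), in which all 78 were found. Sequence shared between rows was counted as identical 50-base words of the annotated transcripts.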

Additional observations from a re-analysis of the deposited data

Results flagged for a closer look

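Of 123 groups of 4 libraries examined over 41 quantities, 5 held 1 library far from the other 3 by Dixon's test at the 95% level, and chance flags about 1 in 20. Mrpl33 stood at 41.5 CPM in untreated wild-type replicate 12, against 46.1 to 46.6 CPM in the other untreated wild-type libraries. In the same library Mrps12 stood at 9.70 CPM, against 7.29 to 7.44 CPM. Mrps16 stood at 21.5 CPM in H2O2-treated wild-type replicate 14, against 26.1 to 26.7 CPM. Mrps36 stood at 16.1 CPM in untreated knockout replicate 3, against 18.5 to 18.8 CPM. The summed level of the members was 2397 CPM in untreated wild-type replicate 10, against 2430 to 2433 CPM in the other 3.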

How the results depend on the processing

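No paired analysis was possible because no replicate number is shared between groups. The 0 calls for H2O2 in knockout cells, in wild-type cells and for the interaction were the same under every alternative run. Higher and lower counts between genotypes stayed within 1.5 times under size factors by relative log expression, no low-count filter, no robust shrinkage, fits to the 2 groups compared and DESeq2. Library totals alone gave member medians of 0.0201 untreated and 0.0735 with H2O2 (log2), 24 higher and 19 lower members with H2O2, and -0.0022 for Mrps18b untreated. On these totals the median of all genes moved to -0.03 in both comparisons. Limma on log2 RPKM gave 0.0178, 0.0698, 26 higher and 20 lower, and -0.0022 for Mrps18b. With limma the median of all genes was -0.0254 untreated and -0.0207 with H2O2. Leaving out 1 library at a time gave members' medians of 0.0451 to 0.0712 untreated, 0.0820 to 0.117 with H2O2 and -0.00825 to 0.0186 for the interaction. It gave 25 to 28 higher and 8 to 12 lower members untreated, and 19 to 30 higher and 9 to 15 lower with H2O2. Without replicate 5 (H2O2-treated knockout), 19 were higher. Mrpl23 ranged from -0.133 to 0.0849 untreated and -0.146 to 0.340 with H2O2, and Mrps12 untreated from -0.0406 to 0.140. With rows that share sequence summed, an alternative chosen after seeing the data, Mrpl23 stood at 0.12 untreated, with most of its counts from Mrpl23-ps1. The causes were not tested. Over 63 results for named members and 23 alternatives, 1325 values kept direction and side of the threshold, 34 lost the call, 8 gained one and 14 changed sign. Without knockout replicate 5, the H2O2 calls of Mrpl18, Mrpl51, Mrps30 and Mrpl44 were lost. Mrpl44 also lost its call under DESeq2 (adjusted p = 0.078), and Mrps18a (0.0559) and Mrps18c (0.0512) lost theirs untreated. Fewer counts give wider intervals, as for Mrpl23.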
